A study of Vitis vinifera with 4 samples.

Results

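MYBPA1 is a grapevine transcription factor of the MYB family, and its strong binding events that stood alone were examined here. An event was called strong at a signal value of 200 or more, in the unit of the deposited list, and single when no other event centre lay within 1000 bp on the chromosome. On chr01 to chr19, 760 of 29836 events met both conditions, 2.55% of them (95% Wilson interval 2.37 to 2.73%), out of 30318 events in the whole list. The events were chosen by their signal value and their distance to other events, so their signal, p and spacing are given as descriptions without a test.

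The binding assay was DNA affinity purification sequencing (DAP-seq). In this method a tagged protein made in a cell-free extract is mixed with fragments of purified genomic DNA, and the DNA that stays on the protein is sequenced. MYBPA1 carrying a HALO tag was used for 2 libraries, and pIX-HALO, the tag vector that serves as control, for 2 others. In both groups the tagged protein came from rabbit reticulocyte lysate and the DNA from young leaves of cultivar Pinot Noir (clone PN-94). The DNA was free of chromatin, so an event marks sequence that the protein held in the tube. The labels give MYBPA1 the gene ID Vitvi15g00938.

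MYBPA1 is known in grapevine as an activator of proanthocyanidin synthesis, the pathway that makes the condensed tannins of seeds and young berry skins. Plant MYB proteins of this kind read short DNA elements through a pair of helical repeats at the start of the protein, and often act with a bHLH partner and a WD40 protein, neither of which is named for these reactions. Genes of the enzymes leucoanthocyanidin reductase and anthocyanidin reductase are among its known targets. No event was given a gene or a sequence here, because the genome build of the coordinates is not given in the sources used here, so the events are named by position, with the first base of a chromosome counted as 1. Values are not split by library in the list, so no spread between libraries can be given for any value below, and the sequencing depth is unknown.

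Strong single events covered a wide range of signal. Their signal ran from 200 to 4280, with a median of 266 and quartiles of 228 and 354. Most were close to the threshold. There were 302 (39.7%) from 200 to under 250, 175 (23.0%) from 250 to under 300, 153 (20.1%) from 300 to under 400 and 98 (12.9%) from 400 to under 600. Only 25 lay from 600 to under 1000, and 7 lay at 1000 or above. These 760 events made up 2.55% of the events on numbered chromosomes and carried 11.4% of their summed signal.

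The strongest of all had a signal of 4280 and was found on chr10 (16304558 to 16304758). Its nearest event was 21420 bp away and was itself strong, at 524. The next was on chr16 from 2791856 to 2792056 with 1594, and its nearest event, 1689 bp away, had 69.2. An event on chr10 from 92902 to 93102 had 1273, and nothing else was listed within 16702 bp of it. These 3 events therefore differed in how far they stood from the nearest event and in how strong that event was.

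Signals of 1224 and 1174 belonged to events on chr12 from 12847810 to 12848010 and on chr18 from 4700537 to 4700737. The event on chr04 from 23015089 to 23015289 had 1138.3, and that on chr14 from 17972975 to 17973175 had 1131. The remaining events of the strongest 10 lay on chr01 from 10796220 to 10796420 (signal 935), on chr01 from 17942142 to 17942342 (897) and on chr09 from 6655661 to 6655861 (890). The second of the chr01 events was the most isolated of the 10, with 61465 bp to one side and 120121 bp to the other free of any event. Its nearest event was weak, with a signal of 37.

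The share of events that were single was lower at higher signal, though not from every band to the next. Among all events on numbered chromosomes 71.7% were single (71.2 to 72.2%), and among those with a signal under 200 it was 72.4% (71.9 to 72.9%). Among the 1326 strong events it was 57.3% (54.6 to 60.0%). By band, the share was 75.5% from 22 to under 30, 72.7% from 50 to under 75, 67.4% from 100 to under 150 and 62.8% from 150 to under 200. Above the threshold it was 59.1% from 200 to under 250, 61.4% from 250 to under 300, 55.8% from 300 to under 400 and 55.7% from 400 to under 600. From 600 to under 1000 it was 39.1% (28.1 to 51.3%), or 25 of 64 events. At 1000 or above it was 43.75% (23.1 to 66.8%), or 7 of 16 events. Of the 10 strongest events on numbered chromosomes 4 were single, of the 100 strongest 46 were, and of the 500 strongest 265 were. All Wilson intervals given here and below cover counting error only and treat events as independent.

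The other 566 strong events had a neighbour within 1000 bp. For 301 of these the nearest event lay at most 200 bp away, and for 265 it lay more than 200 and up to 1000 bp away. Median signals were 282.7 and 282.2 in these classes, against 266 for the single ones, and the upper quartiles were 379.3 and 397.6 against 354. The highest signals were 1764.5 and 2937.8 against 4280, so the single events had the lowest upper quartile but also the strongest event.

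**Figure D1:**
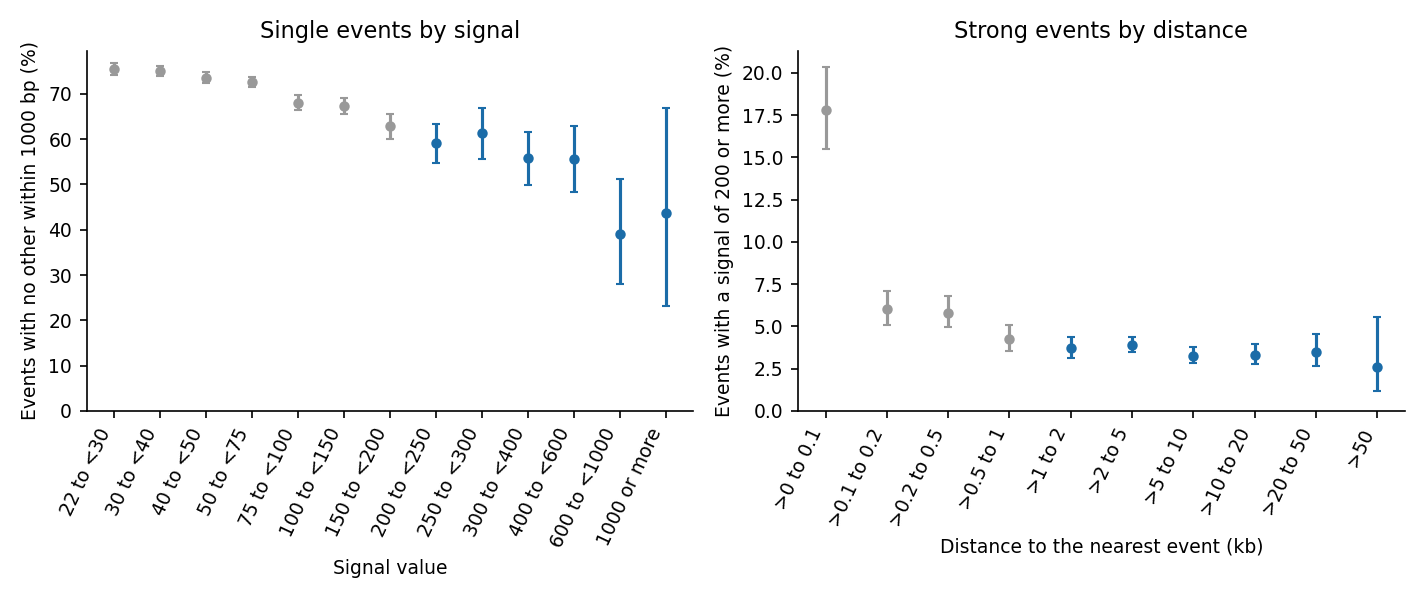
Left, percentage of events with no other event within 1000 bp in 13 bands of signal value; right, percentage of events with a signal of 200 or more in 10 bands of distance to the nearest event. Points are shares on chr01 to chr19, bars are 95% Wilson intervals, and blue marks the bands that hold strong single events. The share of single events goes from 75.5% in the lowest band to 39.1% in the band below 1000, and is 43.75% in the top band. The intervals for the share of strong events overlap in all bands beyond 1 kb.

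Beyond 1000 bp, the share of events that were strong differed little with the distance to the nearest event. Of the events 1 to 2 kb from the nearest, 3.69% were strong (3.14 to 4.34%). The share was 3.89% at 2 to 5 kb (3.46 to 4.36%), 3.25% at 5 to 10 kb (2.81 to 3.76%), 3.29% at 10 to 20 kb (2.74 to 3.93%) and 3.47% at 20 to 50 kb (2.64 to 4.55%). Past 50 kb it was 2.60% (1.20 to 5.55%), from 6 of 231 events. All these intervals overlap. Within 100 bp of another event the share was 17.8% (15.5 to 20.3%), and at 500 to 1000 bp it was 4.25%.

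The distance of a strong single event to the nearest event had a median of 4328 bp and quartiles of 2364 and 8978 bp. For single events with a signal under 200 the median was 4927 bp and the quartiles were 2507 and 9735 bp. Signal showed no ordered change with distance among the strong single events. Their median signal was 283.5 at 1 to 2 kb, 265 at 2 to 5 kb, 252.65 at 5 to 10 kb, 274.6 at 10 to 20 kb and 281.4 at 20 to 50 kb.

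The 95th percentile of the distance was 23859 bp for strong single events and 24641 bp for single events under 200. Long distances were thus not particular to the strong ones. In all, 56 of the 760 strong single events had no other event within 20 kb. The most isolated lay on chr12 from 12302909 to 12303109, with a signal of 230 and 86288 bp to the nearest event. An event on chr10 from 9761774 to 9761974 had a signal of 200 and 81115 bp to the nearest. On chr10 from 15065174 to 15065374 the values were 325.5 and 65268 bp. After the chr01 event of signal 897 described above, the fifth was on chr11 from 12778104 to 12778304, with 290 and 55153 bp. These 5 ran from the threshold itself to 897 and so did not share a signal level.

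The nearest event was usually much weaker, a difference that the signal threshold itself raises. Its signal had a median of 52 with quartiles of 37 and 85.3. This is close to the median of 49 for the nearest event of weaker single events. The median signal of all events on numbered chromosomes was 49.1. Relative to that of its nearest event, the signal of a strong single event was 5.45-fold in the median, with quartiles of 3.34 and 8.12, and the nearest event was the stronger one in 25 of 760 cases. The nearest event was itself strong for 43 of them, or 5.66% (4.23 to 7.53%). That share was 3.92% (3.66 to 4.19%) for single events under 200, and 4.17% (2.92 to 5.93%) for single events from 150 to under 200. The interval of the strong ones overlaps the second but not the first. Over all events on numbered chromosomes the share was 4.82% (4.59 to 5.07%), within the interval of the strong single ones. It was 23.9% for strong events with a neighbour at most 200 bp away. With a neighbour more than 200 and up to 1000 bp away it was 11.7%. Pairs of strong single events that are each other's nearest enter their share from both sides.

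Strong single events had somewhat more other events within 10 kb than weaker single events did, and a like number within 50 kb. Within 10 kb on either side, strong single events had a median of 2 other events and those under 200 had 1. The upper quartiles were 3 and 2. Within 50 kb the median was 8 in both. No other event lay within 10 kb for 171 of the strong ones (22.5%, 19.7 to 25.6%) and for 24.2% of the weaker ones (23.6 to 24.8%). Chance in the placement of events was not tested.

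The deposited p followed the signal for most strong single events, with a few far below the rest. The −log10 p had a median of 63.1, quartiles of 51.0 and 85.3, and a 5th percentile of 39.6. For 6 events p was too small for the list to write, and all 6 are among the 7 events with a signal above 1000. The exception was the chr10 event at 92902, with 255.0. The highest values below the limit were 259.7 and 255.2, for the chr01 events of signal 935 and 897. At the low end stood an event on chr17 from 10553425 to 10553625, where the signal was 266.9 and −log10 p only 8.26. It was followed by an event on chr07 from 26004929 to 26005129, with 307.6 and 15.3, and by one on chr10 from 16212290 to 16212490, with 277 and 16.1. In the band from 250 to under 300 the median −log10 p was 64.4, so the events on chr17 and chr10 lay far below others of like signal.

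To put these differences on 1 scale, a control value was derived for each event. It is the control count that, set against the signal in a binomial test (one-sided, equal odds), would return the p of the list. For 523 of 535 strong single events with a whole signal and a p below the limit, the derived value fell within 0.05 of a whole number (97.8%), a tolerance that covers 10% of values. Among the 219 with a fractional signal this held for 48 (21.9%) with the signal as deposited, and for 218 (99.5%) once the signal was rounded up to the next whole number. Over whole and fractional signals together, the share with rounding up was 98.3% for strong single events. It was 79.6% for single events under 200 and 99.0% for those from 150 to under 200. The derived value is a quantity computed from the signal and p, and which control libraries stand behind it was not tested.

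**Figure D2:**
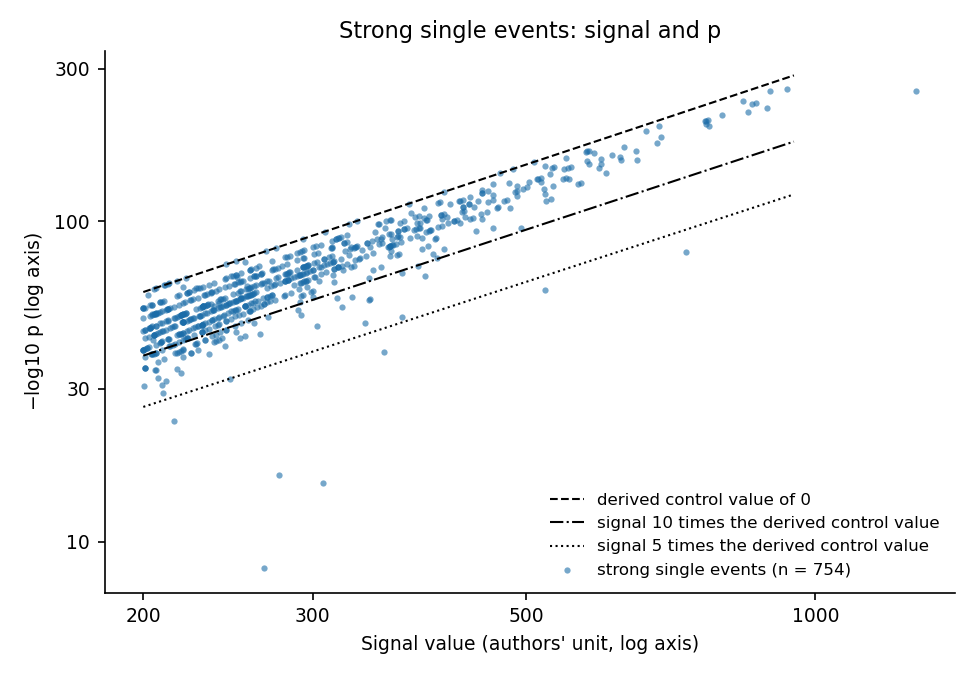
Signal value against −log10 p, both on log axes, for the 754 strong single events with a p below the limit of the list. Each point is 1 event and the lines show the −log10 p at a derived control value of 0 and at signals of 10 and 5 times the derived control value; most points lie between the first 2 lines and 7 lie at a signal under 5 times the control.

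Most strong single events stood well above the derived control, a measure that the signal threshold itself raises. Their signal had a median of 20.9 times the derived control value, with quartiles of 14.2 and 35.7 and a 5th percentile of 8.34. It was over 10 times for 678 of 754 events (89.9%), against 21.0% of all events on numbered chromosomes with a derived value. That share was 67.2% for single events from 150 to under 200. For strong events with a neighbour it was 97.3% within 200 bp and 90.8% at more than 200 and up to 1000 bp. The derived value itself differed less than the signal. Its median was 14.0 (quartiles 10.1 and 18.0) for strong single events, 14.0 for single events from 150 to under 200 and 11.0 for single events under 200. Among strong single events the median stayed near 14 from the band of 200 to under 250 up to that of 600 to under 1000, while the median ratio rose from 16.3 to 49.4. Strong events with a neighbour more than 200 and up to 1000 bp away had a median ratio of 24.9. Those with a neighbour within 200 bp had 35.2 and a median derived value of 8.0.

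**Figure D3:**
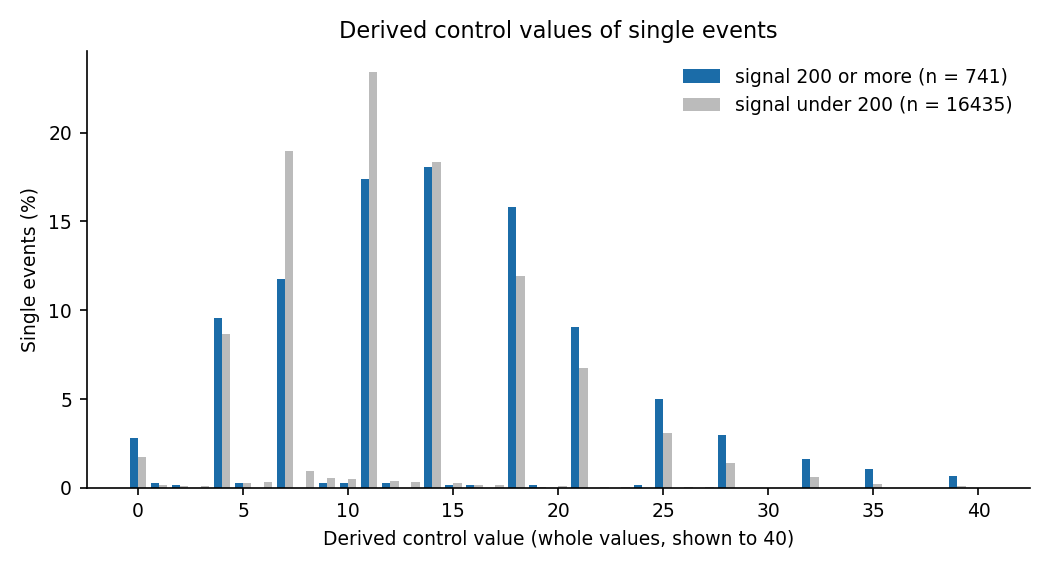
Percentage of single events at each whole derived control value up to 40, for the 741 strong single events and the 16435 weaker single events whose derived value, from the signal rounded up, was whole. Both classes stand on the same few values (0, 4, 7, 11, 14, 18, 21 and so on); the highest bar is at 14 for strong events and at 11 for weaker ones.

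The derived value was 0 for 21 of 754 strong single events, so that p was as small as the signal allows. This also held for 22 of 695 single events from 150 to under 200 and for 284 of 20638 under 200. Over all events on numbered chromosomes with a derived value it held for 415 of 29822. The strongest of the 21, with signal 510 and −log10 p 153.5, lay on chr17 from 10067885 to 10068085. An event on chr14 from 3254854 to 3255054 had 485 and 146, and one on chr19 from 7446519 to 7446719 had 470 and 141.5. Where the derived value was above 0, the highest ratios were 295.5 for an event on chr17 from 5036838 to 5037038 (signal 255.1), 232.5 on chr08 from 17337622 to 17337822 (202.2) and 171.9 on chr06 from 859477 to 859677 (687). The first 2 of these have fractional signals and derived values just under 1, and with the signal rounded up their ratios were 254.7 and 202.4.

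At the other end, 7 of 754 strong single events had a signal under 5 times the derived control. This held for 1 of 297 strong events with a neighbour within 200 bp. With a neighbour more than 200 and up to 1000 bp away it held for 4 of 261. Over all events on numbered chromosomes with a derived value it held for 16031 of 29822. The lowest of the 7 was the chr17 event at 10553425, with a derived value of 149.97 and a ratio of 1.78. The chr07 event at 26004929 had 139.3 and 2.21, and the chr10 event at 16212290 had 115.0 and 2.41. The others lay on chr14 from 5416420 to 5416620 (ratio 4.06), on chr03 from 8807143 to 8807343 (4.10), on chr10 from 16173968 to 16174168 (4.124) and on chr10 from 16325978 to 16326178 (4.403). A derived value of at least 100 was found for 6 strong single events, 4 of them on chr10, and for 0 of the 20638 weaker single events. This is no comparison at like signal, since a weaker event has less room above so high a control value. Strong events with a neighbour are not counted here, but some on chr10 also had values of at least 100.

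The 3 low ratios on chr10 came from 1 stretch, which was looked at after its values had been seen. Within 150 kb on either side of the strongest event, the list held 13 events, 10 of them strong and 4 of them strong and single. The strong single ones had signals of 734 at 16173968, 277 at 16212290, 4280 at 16304558 and 524 at 16325978. In the order of these positions, those of signal 734, 277 and 524 had derived control values of 178.0, 115.0 and 119.0. For the event of signal 4280 no control value could be derived, because its p is at the limit. High values were also found for strong events of the stretch that had a neighbour within 1000 bp. Those of signal 411.7, 705.1 and 263.4 had 267.8, 130.6 and 118.6. Those of signal 264.9 and 595.3 had 88.9 and 55.8, and for that of signal 2937.8 p is at the limit. Weak single events at the edges had lower values. One of signal 41, just outside from 16151028 to 16151228, had 7.0, and one of signal 40, from 16405152 to 16405352, had 14.0. Events this weak could not be listed above a control value as high as those of the strong ones. Their lower values therefore do not show where the high control values end.

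Strong single events were found on all 19 chromosomes, and their number followed that of all events. Chr18 held the most, with 72, and chr02 the fewest, with 22. Chr04 held 55, chr08 held 54 and chr14 held 52, while chr17 held 29. As a share of the events of the chromosome they ranged from 1.76% on chr02 (1.17 to 2.65%) to 3.06% on chr18 (2.43 to 3.83%). The intervals of all 19 chromosomes included the 2.55% of the chromosomes together. Per Mb between the outermost events the range was from 1.17 on chr02 to 2.40 on chr08, with 2.23 on chr04 and 2.09 on chr18. Of the strong events of a chromosome, the single ones made up between 41.5% on chr02 and 64.3% on chr18.

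Median levels differed less between chromosomes than the counts did. The median signal of strong single events ran from 244.85 on chr02 to 298.5 on chr16. The median ratio of signal to derived control ran from 17.2 on chr12 to 27.4 on chr14. The chromosomes differed more in their strongest such event. It had a signal of 503.7 on chr05, 546 on chr07 and 596 on chr17, but 1594 on chr16 and 4280 on chr10.

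**Figure D4:**
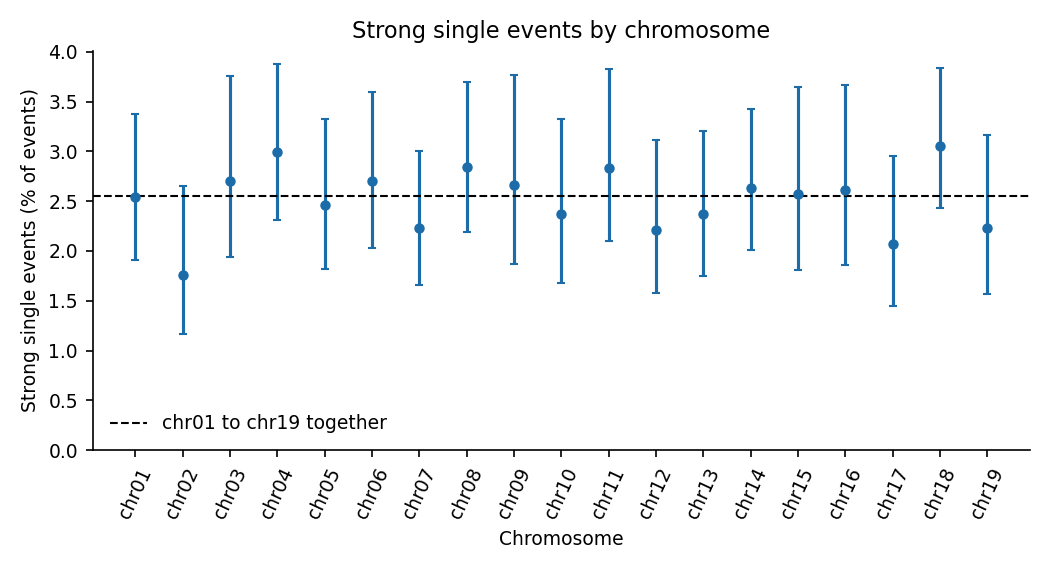
Strong single events as a percentage of all events, for each of the 19 numbered chromosomes. Points are shares, bars are 95% Wilson intervals and the dashed line is the 2.55% of the chromosomes together, which lies within every bar.

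Along the chromosomes, strong single events thinned out towards the middle as weaker ones did. With each span cut into 10 equal parts, the first held 117 of them (15.4%, 13.0 to 18.1%), the fifth 51 (6.71%), the sixth part 48 (6.32%, 4.80 to 8.27%) and the last 82 (10.8%). For single events under 200 the same parts held 12.8% (12.3 to 13.2%), 7.76, 7.15% (6.81 to 7.51%) and 11.0%. The 4 outermost parts together held 49.3% of the strong single events (45.8 to 52.9%) and 46.2% of the weaker ones (45.5 to 46.9%), and these intervals overlap. The first and last parts follow the numbering of the chromosome and not its arms.

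**Figure D5:**
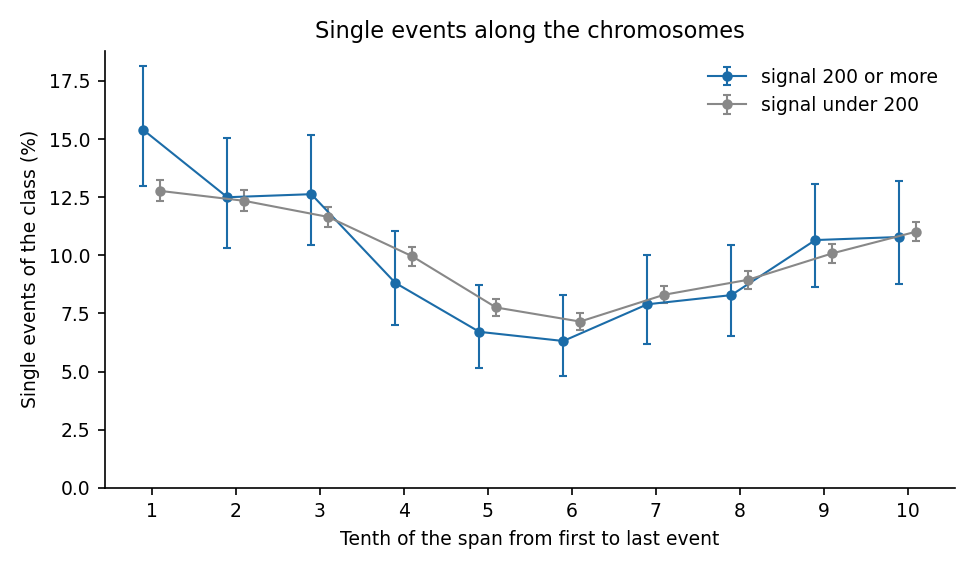
Percentage of strong single events (signal 200 or more) and of weaker single events in each of 10 equal parts of the span between the outermost events, over 19 chromosomes. Points are shares and bars are 95% Wilson intervals; both classes are lowest in the fifth and the sixth part, and the intervals of the classes overlap in each part.

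Windows of 1 Mb were classed by their number of events of any signal. The 117 windows with 86 or more events, the upper 25% by count and called event-rich, held 316 of the 745 strong single events in full windows (42.4%, 38.9 to 46.0%), and 37.7% of the weaker single events (37.1 to 38.4%), intervals that do not overlap. The share of all events was 39.2% (38.7 to 39.8%), an interval that overlaps that of the strong single ones. Single events from 150 to under 200 had 41.7% (38.1 to 45.5%), and with a threshold of 300 the share of strong single events was 38.3% (32.7 to 44.1%), so the higher share was not seen at that threshold. Counted per event, 2.77% of the events in event-rich windows were strong and single (2.48 to 3.08%), against 2.43% (2.22 to 2.67%) in windows with more than 10 and fewer than 86 events, and these intervals overlap. All these intervals treat events of the same window as independent, so whether they overlap is a description and not a test. The 17 windows with at most 10 events held 99 events in all, of which 1 was strong and single. It lay on chr09 from 11124604 to 11124804, with a signal of 414, a −log10 p of 103.0 and 588608 bp without an event on one side.

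Of the 449 full windows, 115 (25.6%) held no strong single event, 129 held 1, 94 held 2 and 59 held 4 or more. The highest number was 9, on chr18 from 8000001 to 9000000, where the 9 had signals between 202.7 and 393 among 94 events. All 9 lay between 8331251 and 8890497. Windows on chr01 from 4000001 to 5000000 and on chr07 from 6000001 to 7000000 held 7 each, among 113 and 76 events. The strongest of these single events had signals of 395.8 and 468, so in all 3 windows they stayed below 600.

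Neighbouring strong single events were a median of 325 kb apart (quartiles 115 and 741 kb), with a median of 24 other events between them. The longest stretch without one was 5750 kb on chr19, from 10792022 to 16542119, and it held 107 events of other kinds. In 123 of the 741 neighbouring pairs the distance was over 1 Mb.

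Only 12 pairs lay within 5 kb, and 10 of these had no event between them. The closest were 1136 bp apart on chr18, at 26378194 and 26379330, with signals of 556.6 and 487. The next were 1845 bp apart on chr18, at 27612463 and 27614308, with 344 and 340 and ratios to the derived control of 7.48 and 5.67. The third pair was 2314 bp apart on chr07, at 26005029 and 26007343, with 307.6 and 296. Its members had like signals but −log10 p of 15.3 and 62.5 and ratios of 2.21 and 13.8. Over the 12 pairs the median ratio of the stronger to the weaker signal was 1.18 (1.01 to 1.79), compared with 1.31 over all neighbouring pairs.

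Neither limit of the rule fell at a break in the data. There were 82 single events from 200 to under 210 and 83 from 190 to under 200. Exactly at the limit of 200 stood 9 of them, with −log10 p from 39.6 to 53.6 and a median of 45.6. The 3 of these with the lowest position number lay on chr08 from 1769018 to 1769218, on chr11 from 6186076 to 6186276 and on chr10 at 9761774 as described above. The 3 just outside had 199.9 on chr02 from 6208514 to 6208714, 199.3 on chr19 from 7296122 to 7296322 and 199 on chr14 from 26314552 to 26314752. The 3 just outside had −log10 p of 60.2, 47.7 and 49.6.

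By distance, 17 strong events had their nearest neighbour within the 100 bp beyond the limit and 18 within the 100 bp before it. Just inside were events on chr06 from 1051119 to 1051319 (1006 bp, signal 234), on chr18 from 21561947 to 21562147 (1014 bp, 235) and on chr01 from 12540377 to 12540577 (1028 bp, 221.7). Just outside were events on chr15 from 12542786 to 12542986 (987 bp, signal 320), on chr05 from 14552004 to 14552204 (983 bp, 253.8) and on chr17 from 10538823 to 10539023 (981 bp, 233). The events on either side of the limit thus had similar signals.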

How the data were processed

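The data were 1 deposited list of MYBPA1 events in narrowPeak layout, with 2 MYBPA1 and 2 pIX-HALO libraries behind the study. Tools named in the submitters' processing notes are fastp 0.21.0 and Bowtie2 2.0. GEM, the caller, is known from the name of the list. Its settings, the genome build, the control and the way the MYBPA1 libraries entered were not given in the sources used here. For each event the authors deposited a display score (not used), a signal value of unstated scaling, and −log10 values of p and q, with decimal commas read as points. The list ends at a −log10 q of 2.

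Events are 201 bp wide, and the middle base was taken as the centre. Distances count all events on the chromosome, and chr00 (unplaced sequence) was left out. The control value was solved for numerically, without the events at the limit of p, and values under 0.05 were taken as 0. Finding single events and deriving control values were tested on simulated data with known answers. No test between groups was run, since values are not split by library and events are not replicates. The strong single events, the bands and the windows were chosen with earlier results of these data known. Regions were named by fixed rules: the 10 of highest signal, the 5 most isolated, the 3 at each end of p and of the ratio, the 3 closest pairs, the 3 fullest windows, the longest empty stretch and the 3 on each side of both limits, with ties at the signal limit taken by lowest position number. The chr10 stretch, the events of control value 0, those under 5 times the control and the one in an event-poor window were named after their values were seen. Alternatives were thresholds of 150 and 300, distances of 500 and 2000 bp, a −log10 q of at least 5 and adding chr00. The tools were matplotlib 3.10.9, scipy 1.17.1, pandas 2.3.3 and numpy 2.4.6 under Python 3.11.15.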

Additional observations from a re-analysis of the deposited data

How the results depend on the processing

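The 6 results were recomputed under other settings and, for the ratio, with the signal rounded up, which was chosen after seeing the data. Of 37 values, 23 stayed within 1.5 times the reported count or within the 95% interval of the reported share or median, and 14 moved out of it. The signal threshold sets the size of the class by construction: at 150 there were 1455 strong single events, with a median −log10 p of 45.3 and a median ratio to the derived control of 16.6, and at 300 there were 283, with 95.7 and 30.1. At 300 the single share of strong events was 53.4% and the share in event-rich windows fell to 38.3%, near the 37.7% of weaker single events. With a neighbour distance of 500 bp, 65.8% of strong events were single and the median distance was 3744 bp; with 2000 bp these were 46.8% and 5713 bp. Among events with −log10 q of at least 5 alone they were 65.6% and 6929 bp, since fewer events were there to be neighbours. Adding chr00 gave 795 events and moved no result, and rounding up left the ratio at 20.9. No replicate could be left out. No paired analysis was possible because values are not split by library. The depth is unknown, so missed neighbours below the end of the list cannot be counted, and an event called single may have one.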

Other observations

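The derived control values of the strong single events stood on a ladder. Of 720 whole values above 0, taken from the signal rounded up, 705 (97.9%) were multiples of 3.48 rounded up to a whole number. This step was picked on these same values, since it gave the highest count among steps from 3.3 to 3.7. The step of 3.50 gave 701 (97.4%). The most frequent values were 14 with 134 events, 11 with 129, 18 with 117, 7 with 87, 4 with 71 and 21 with 67. The same values were the most frequent among single events under 200, led by 11 with 3853 of 16435, 7 with 3115 and 14 with 3017. The ladder was thus not particular to the strong single events. The cause of the ladder was not tested.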
